A study of Mus musculus with 8 samples.

Results

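The genes of the T cell receptor complex and a few further T cell genes were followed in mouse hearts with autoimmune myocarditis. The set holds 10 of the 34745 genes of the deposited table, chosen by symbol: the CD3 chains Cd3d, Cd3e and Cd3g, the receptor constant regions Trbc1 and Trbc2, the coreceptors Cd4 and Cd8a, the adhesion receptor Cd2, and the cytotoxic genes Nkg7 and Gzmb. All 10 symbols were found, each with its values in 8 bulk libraries of heart messenger RNA. The first group was EAM Trim21 KO, 3 hearts with the genotype label TRIM21KO, the treatment label EAM and the time label Day21. The second was EAM wild type, 3 hearts with the same treatment and time labels and the genotype label Wildtype. The third was control, 2 wild-type hearts with the treatment label Control and the time label Day0. All 8 libraries carry the label Balb/c. The age of the mice, not given in the sources used here, is unknown.

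EAM, experimental autoimmune myocarditis, was raised by injecting a peptide of the cardiac alpha myosin heavy chain in complete Freund's adjuvant on days 0 and 7. Day 0 is the time label of the control hearts, although the treatment protocol speaks of control mice given adjuvant with buffer alone, so EAM and control differ in day as well as in immunization. A second sheet of the workbook lists former names of the libraries, with day 35 where the EAM labels have day 21. No knockout heart without EAM was analysed here, so whether a genotype difference depends on EAM cannot be told. The study asked how the ubiquitin ligase TRIM21 acts in this disease. Trim21 stood at 0.0481, 0 and 0.0220 FPKM in the EAM Trim21 KO libraries, against 2.98, 3.29 and 3.37 FPKM in EAM wild type and 1.98 and 2.18 FPKM in control, so the genotype labels matched the targeted transcript.

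The T cell receptor recognizes a peptide held by an MHC molecule through its alpha and beta chains, and the CD3 gamma, delta, epsilon and zeta chains carry the signal into the cell. CD4 binds MHC class II and CD8 binds MHC class I, and both bring the kinase LCK to the engaged receptor. In autoimmune myocarditis of mice, CD4 T cells that recognize alpha myosin heavy chain are known to start and transfer the disease, and macrophages and other myeloid cells make up much of the infiltrate.

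Values are FPKM, fragment counts scaled by transcript length and by library size. All 10 genes were low: 9 of the 80 values were 0 and 7 reached 1 FPKM, and the mean over the 8 libraries ran from 0.0577 FPKM for Cd8a to 0.785 FPKM for Trbc2. The libraries held 14390000 to 16930000 fragments, as inferred from the smallest steps of the FPKM table. Each of the 80 values was a whole number of counting steps at that depth. A value can thus be read as a small number of steps, with 44 as the highest, for Cd4 in EAM wild type 2. A step need not be 1 fragment. At GENCODE M21 exon lengths it would be 0.473 fragments for Cd8a, 0.626 for Cd2, 0.813 for Cd4 and 0.875 for Trbc1, and as many as 2.84 for Cd3e. The gene lengths behind the deposited FPKM, not given in the sources used here, could not be checked, and for Cd8a a step of 1 fragment would need a length of 7695 bases, more than the 5747 bases of its locus. The level of Cd8a relative to other genes, its ratio to Cd4 included, is therefore uncertain. With numbers this small a value of 0 allows a level of up to 3 fragments. With a step taken as 1 fragment, that was 0.128 FPKM for Cd3e and 0.229 FPKM for Nkg7 in EAM Trim21 KO 3. These limits cover counting error only. In a bulk library, fewer T cells and less RNA per T cell cannot be told apart.

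**Figure D1:**
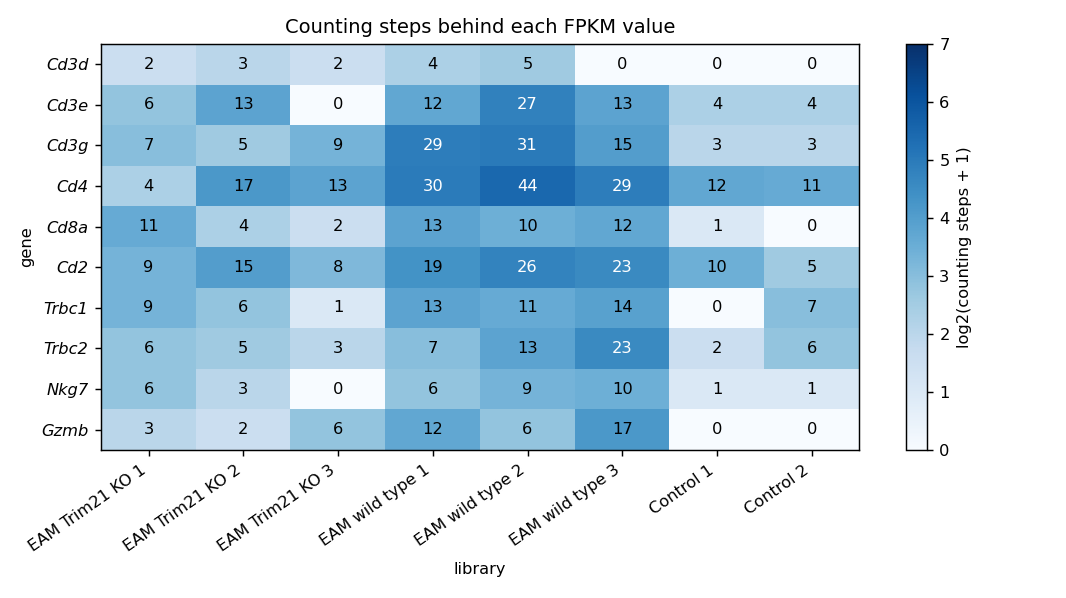
Counting steps behind each FPKM value, with genes as rows and libraries as columns; darker cells hold more steps on a log2(steps + 1) colour scale, and the printed numbers are the steps. EAM wild-type columns are the darkest for most genes, with 29, 31 and 15 steps for Cd3g, against 7, 5 and 9 in EAM Trim21 KO and 3 and 3 in control.

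Cd3g, Cd3d and Cd3e encode the gamma, delta and epsilon chains of CD3 and lie side by side on chromosome 9 (mm10). Cd3g (ENSMUSG00000002033) occupies 44969572 to 44980431 on the minus strand and Cd3d (ENSMUSG00000032094) 44981793 to 44987052 on the plus strand, 1361 bases apart. Cd3e (ENSMUSG00000032093) occupies 44998743 to 45009590 on the minus strand, 11690 bases from Cd3d. Its exons overlap those of the gene Gm48719, so reads from the overlap may come from either gene. The start regions of these neighbours are shown because they encode chains of 1 complex and Cd3g was the gene called. Each run holds 250 bases before and 50 after the RefSeq transcript start (GRCm38.p6), with matches to 5 motifs in capitals.
Cd3g, chr9:44980382-44980681, minus strand: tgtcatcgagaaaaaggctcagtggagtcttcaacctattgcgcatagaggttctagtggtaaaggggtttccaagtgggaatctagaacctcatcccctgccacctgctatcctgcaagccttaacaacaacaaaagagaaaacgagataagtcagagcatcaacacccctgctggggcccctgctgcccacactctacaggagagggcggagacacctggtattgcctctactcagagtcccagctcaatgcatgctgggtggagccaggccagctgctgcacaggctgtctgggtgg
Cd3d, chr9:44981536-44981835, plus strand: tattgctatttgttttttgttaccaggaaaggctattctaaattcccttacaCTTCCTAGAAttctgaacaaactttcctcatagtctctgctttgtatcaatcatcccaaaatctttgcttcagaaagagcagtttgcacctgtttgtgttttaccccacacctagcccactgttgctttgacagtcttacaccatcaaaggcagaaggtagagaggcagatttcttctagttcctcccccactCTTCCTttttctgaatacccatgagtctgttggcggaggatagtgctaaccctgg
Cd3e, chr9:45009562-45009861, minus strand: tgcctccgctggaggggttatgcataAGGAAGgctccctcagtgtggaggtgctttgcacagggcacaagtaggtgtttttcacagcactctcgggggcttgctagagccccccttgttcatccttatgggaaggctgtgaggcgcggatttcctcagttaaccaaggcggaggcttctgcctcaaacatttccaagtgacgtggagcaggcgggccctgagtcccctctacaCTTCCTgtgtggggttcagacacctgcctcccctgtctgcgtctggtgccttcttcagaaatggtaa
Motifs were searched by their letters on both strands: AGGAAG for ETS factors, TGTGGT for RUNX factors, TGACGTCA for the cyclic AMP response element (CRE), TTCNNNGAA for the STAT element (GAS) and TATAAA for the TATA box. The Cd3d and Cd3e runs each held 2 ETS matches. In Cd3d the first of them overlaps a GAS match, so that the capitals there form 1 run. The Cd3g run held none of the 5 motifs, which says only that these letters are not in this window. Of 32851 RefSeq promoters of this length, 35.4% held the ETS letters, 16.8% the RUNX letters, 8.3% the GAS letters, 13.6% the TATA letters and 1.79% the CRE letters. RefSeq start regions were matched for 6 of the 10 genes, of which 3 held an ETS match, 2 a RUNX match, 3 a GAS match and none a CRE or TATA match.

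Cd3g was the clearest of the 10 genes. It stood at 0.350, 0.239 and 0.412 FPKM in EAM Trim21 KO, against 1.51, 1.52 and 0.773 FPKM in EAM wild type and 0.133 and 0.153 FPKM in control. The 3 groups did not overlap, with the 3 knockout libraries between the other groups. The mean was 0.334 ± 0.0874 FPKM in EAM Trim21 KO (SD, n = 3), against 1.27 ± 0.427 FPKM in EAM wild type (SD, n = 3) and 0.143 ± 0.0141 FPKM in control (SD, n = 2). Cd3g fell by 0.75 on the log2(FPKM + 1) scale in EAM Trim21 KO against EAM wild type (SE 0.14, limma adjusted p = 0.0331), a scale that understates changes of low genes. It rose by 0.97 in EAM wild type against control (SE 0.15, limma adjusted p = 0.0287). The ratio of mean FPKM was 0.264 in the first comparison and 8.87 in the second. EAM Trim21 KO against control gave 0.22 (SE 0.15, limma adjusted p = 0.596).

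Both Cd3g calls lay close to the threshold. The call against EAM wild type was lost when any library other than EAM wild type 3 was left out, with log2 changes of -0.66 to -0.79 and limma adjusted p of 0.0626 to 0.117, and it was lost under another scaling of the libraries (0.0822 with median-ratio scaling). The call against control was lost without EAM Trim21 KO 1 or 2, EAM wild type 1 or 2, or either control (limma adjusted p of 0.0528 to 0.196), and with median-ratio scaling (0.0667).

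Cd3e, the chain that pairs with both CD3 gamma and CD3 delta, had a wider spread. It stood at 0.279, 0.579 and 0 FPKM in EAM Trim21 KO, against 0.581, 1.23 and 0.623 FPKM in EAM wild type and 0.165 and 0.189 FPKM in control. The knockout libraries lay below those of EAM wild type by a narrow margin, 13 counting steps in EAM Trim21 KO 2 against 12 in the slightly shallower EAM wild type 1, and spanned both controls. The log2 change was -0.50 in EAM Trim21 KO against EAM wild type (SE 0.18, limma adjusted p = 0.193) and 0.60 in EAM wild type against control (SE 0.20, limma adjusted p = 0.229).

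Cd3d was at the edge of detection in every group. It stood at 0.101, 0.145 and 0.0923 FPKM in EAM Trim21 KO, against 0.210, 0.247 and 0 FPKM in EAM wild type, and was listed at 0 in both controls. EAM wild type 3, with no Cd3d, made the EAM groups overlap, although that library had 13 steps of Cd3e and 15 of Cd3g. The limit of 3 fragments over the control group was 0.0717 FPKM. Mean Cd3d was 1.57 times that limit in EAM Trim21 KO and 2.12 times in EAM wild type. The counting error of the EAM means is left out, so these multiples are not lower bounds of a change. The mean of 0.0994 FPKM over 8 libraries left Cd3d just under the filter of 0.1 FPKM, so it was not among the tested genes.

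Trbc1 (ENSMUSG00000076490, chromosome 6, 41538218 to 41539881) and Trbc2 (ENSMUSG00000076498, 41546730 to 41548352) encode the constant regions of the receptor beta chain, lie 6848 bases apart on the plus strand (mm10), and each T cell with a rearranged beta chain uses one or the other. Their transcripts are 95.3% identical over the 512 bases compared, with 24 differing bases, and the first 259 bases are the same in both. A fragment from that stretch fits either gene, so the split between them is uncertain. The stretch below, bases 363 to 512 of each GENCODE M21 transcript, is shown because it holds 23 of the 24 differences, in capitals.
Trbc1: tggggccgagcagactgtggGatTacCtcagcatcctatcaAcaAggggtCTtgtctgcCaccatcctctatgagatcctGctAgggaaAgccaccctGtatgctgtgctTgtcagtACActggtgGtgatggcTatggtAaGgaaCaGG
Trbc2: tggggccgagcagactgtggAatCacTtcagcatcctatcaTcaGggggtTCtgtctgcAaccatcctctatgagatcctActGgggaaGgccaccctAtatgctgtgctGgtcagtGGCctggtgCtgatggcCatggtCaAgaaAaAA
Trbc1 stood at 0.702, 0.448 and 0.0714 FPKM in EAM Trim21 KO, against 1.06, 0.838 and 1.13 FPKM in EAM wild type and 0 and 0.556 FPKM in control. Trbc2 stood at 0.579, 0.462 and 0.265 FPKM in EAM Trim21 KO, against 0.703, 1.23 and 2.29 FPKM in EAM wild type and 0.171 and 0.589 FPKM in control. For both genes every EAM Trim21 KO library was below every EAM wild-type library, while the knockout and control ranges overlapped. Their sum, which the split alters only as far as the lengths of the 2 genes differ, was 1.28, 0.910 and 0.336 FPKM in EAM Trim21 KO, against 1.76, 2.06 and 3.41 FPKM in EAM wild type and 0.171 and 1.15 FPKM in control. Trbc1 had a log2 change of -0.54 (SE 0.20, limma adjusted p = 0.206) and Trbc2 of -0.70 (SE 0.23, limma adjusted p = 0.157) in EAM Trim21 KO against EAM wild type. Against control, EAM wild type gave 0.68 (SE 0.22, limma adjusted p = 0.219) for Trbc1 and 0.77 (SE 0.25, limma adjusted p = 0.227) for Trbc2.

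Cd4 (ENSMUSG00000023274, chromosome 6, 124864692 to 124888221, minus strand) encodes the coreceptor of helper T cells and is also known from some dendritic cells. It stood at 0.0538, 0.219 and 0.160 FPKM in EAM Trim21 KO, against 0.420, 0.579 and 0.402 FPKM in EAM wild type and 0.143 and 0.151 FPKM in control. EAM wild type was above the other groups in every library, and the knockout libraries lay on both sides of control, with means of 0.144 ± 0.0837 FPKM (SD, n = 3) and 0.147 ± 0.00551 FPKM (SD, n = 2). The log2 change of -0.36 in EAM Trim21 KO against EAM wild type just missed the threshold (SE 0.080, limma adjusted p = 0.0623). EAM wild type against control gave 0.35 (SE 0.090, limma adjusted p = 0.121).

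Cd8a (ENSMUSG00000053977, chromosome 6, 71373427 to 71379173, plus strand) encodes the alpha chain of the coreceptor of cytotoxic T cells. It stood at 0.0954, 0.0332 and 0.0159 FPKM in EAM Trim21 KO, against 0.117, 0.0848 and 0.107 FPKM in EAM wild type and 0.00768 and 0 FPKM in control. EAM Trim21 KO 1, the library lowest in Cd4, held the most Cd8a of the 3 knockout libraries, 11 counting steps against 13, 10 and 12 in EAM wild type, and made the EAM groups overlap. The controls held 1 and 0 steps. With a mean of 0.0577 FPKM Cd8a was under the filter and not among the tested genes. Without the filter its log2 change was -0.074 (SE 0.031, limma adjusted p = 0.329) in EAM Trim21 KO against EAM wild type and 0.14 (SE 0.035, limma adjusted p = 0.180) in EAM wild type against control.

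Cd2 (ENSMUSG00000027863, chromosome 3, 101275899 to 101287939, minus strand) encodes an adhesion receptor of T cells and NK cells. It stood at 0.216, 0.345 and 0.176 FPKM in EAM Trim21 KO, against 0.475, 0.610 and 0.569 FPKM in EAM wild type and 0.213 and 0.122 FPKM in control. The EAM groups were separate, and EAM Trim21 KO overlapped control. Cd2 had a log2 change of -0.32 in EAM Trim21 KO against EAM wild type (SE 0.079, limma adjusted p = 0.0824) and of 0.41 in EAM wild type against control (SE 0.088, limma adjusted p = 0.0816).

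Gzmb (ENSMUSG00000015437, chromosome 14, 56258856 to 56262260, minus strand) encodes granzyme B, a protease that cytotoxic T cells and NK cells release into their targets. It stood at 0.141, 0.0901 and 0.258 FPKM in EAM Trim21 KO, against 0.588, 0.276 and 0.825 FPKM in EAM wild type, and was listed at 0 in both controls. The 3 groups did not overlap, although the highest knockout library and the lowest EAM wild-type library both held 6 counting steps. The limit of 3 fragments over the control group was 0.0669 FPKM. Mean Gzmb was 2.44 times that limit in EAM Trim21 KO and 8.42 times in EAM wild type. As for Cd3d, the counting error of the EAM means is left out, so these multiples are not lower bounds. The log2 change was -0.41 in EAM Trim21 KO against EAM wild type (SE 0.12, limma adjusted p = 0.132) and 0.63 in EAM wild type against control (SE 0.14, limma adjusted p = 0.0853).

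Nkg7 (ENSMUSG00000004612, chromosome 7, 43437073 to 43438249, plus strand) encodes a granule membrane protein of NK cells and cytotoxic T cells. It stood at 0.501, 0.240 and 0 FPKM in EAM Trim21 KO, against 0.521, 0.734 and 0.860 FPKM in EAM wild type and 0.0739 and 0.0850 FPKM in control, where each value is 1 counting step. EAM Trim21 KO 1 and EAM wild type 1 nearly met, at 6 counting steps each, while EAM Trim21 KO 3 was listed at 0. The log2 change was -0.47 in EAM Trim21 KO against EAM wild type (SE 0.14, limma adjusted p = 0.136) and 0.65 in EAM wild type against control (SE 0.16, limma adjusted p = 0.107).

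**Figure D2:**
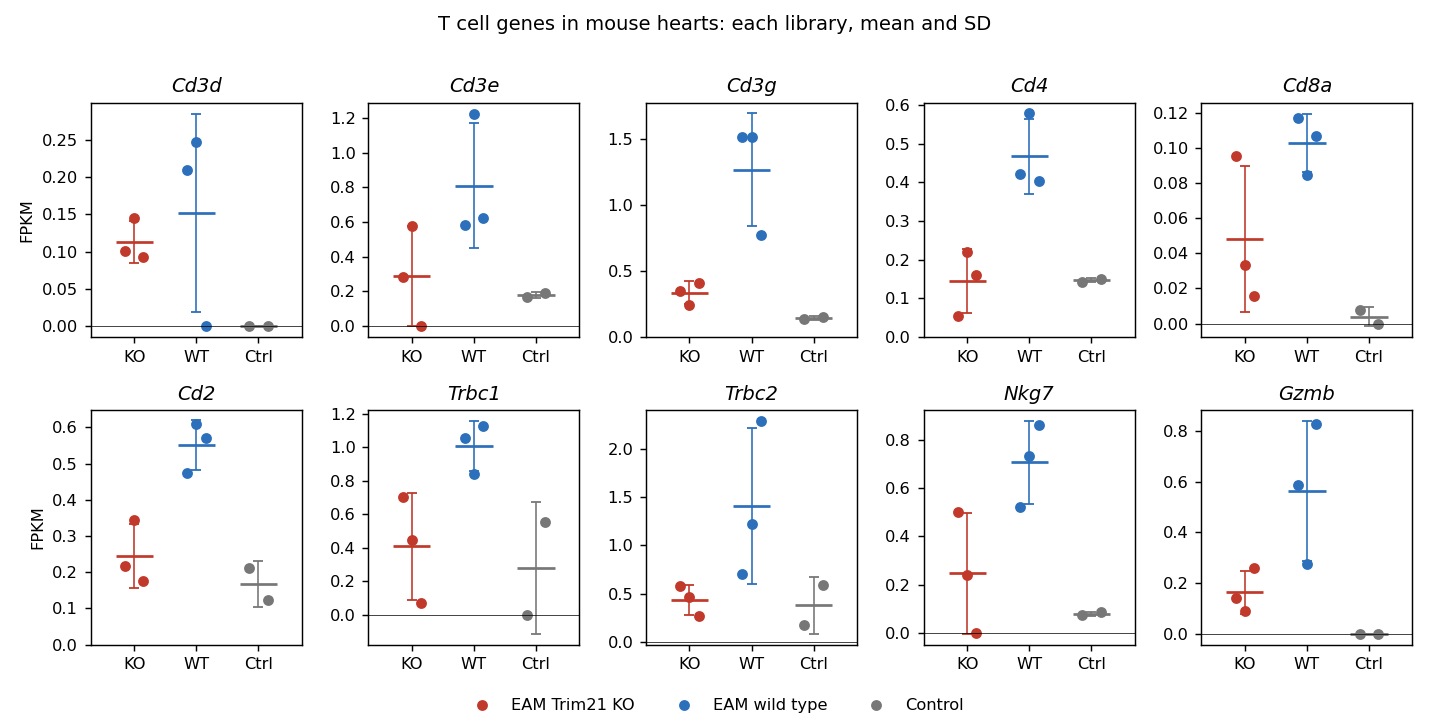
FPKM of each T cell gene in each library (points), with group mean (bar) and SD (whiskers), for EAM Trim21 KO (n = 3), EAM wild type (n = 3) and control (n = 2); each panel has its own scale, and whiskers of small groups can pass below 0. EAM wild type lies highest in most panels, and Cd3d and Cd8a are those in which the EAM groups overlap.

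In EAM Trim21 KO against EAM wild type, 8 of the 10 genes had every knockout value below every wild-type value, the exceptions being Cd3d and Cd8a. The same order held for 15.6% of the 20687 genes above 0 in at least 1 library, and for 13.3% of the 5567 genes within the range of mean levels of the 10. The count and both shares are of FPKM as deposited and depend on the scaling. With median-ratio scaling Cd3e and Gzmb would overlap between the EAM groups. Gzmb and Nkg7 also tied at 6 counting steps between a knockout and a wild-type library. With limma, 8 of the 10 genes passed the filter on low values, and 1 of them, Cd3g, passed the threshold, against 1.91% of all 14961 tested genes called lower. At an unadjusted p under 0.05 stood 8 of 8, against 18.0% of all tested genes. Without the filter the median log2 change of the 10 genes was -0.44, against -0.035 for all genes, with 10 negative values. None was then called, and Cd3g had a limma adjusted p of 0.0688. Over all tested genes 286 were called lower and 48 higher, and 101 and 57 with median-ratio scaling.

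In EAM wild type against control, 9 of the 10 genes had every EAM value above both controls, with Cd3d as the exception. The same order held for 18.5% of genes above 0, and for 19.3% of genes in the range of levels of the 10. With limma Cd3g was again the 1 gene of 8 past the threshold, against 0.876% of all tested genes called higher. At an unadjusted p under 0.05 stood 8 of 8, against 13.3% of all tested genes. Without the filter the median log2 change of the 10 genes was 0.62, against 0.028 for all genes, and all 10 were positive. Over all tested genes 131 were called higher and 14 lower, and 62 and 16 with median-ratio scaling. This comparison shares the EAM wild-type libraries with the preceding comparison, so the signs of the values in these comparisons are not independent.

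In EAM Trim21 KO against control no gene of the set was called by limma (0 of 8 tested), and 0 of 8 had an unadjusted p under 0.05, against 0.809% of all tested genes called in either direction and 12.4% at an unadjusted p under 0.05. The count stayed at 0 under each alternative setting run. Adjusted p in this limma fit ran from 0.569 for Gzmb to 0.988 for Cd4, whose log2 change was -0.0058 (SE 0.090). For 4 genes, Cd3d, Cd3g, Cd8a and Gzmb, every knockout value was above both controls, as for 11.6% of genes above 0 and 13.8% of genes in the range of levels of the 10. The median log2 change without the filter was 0.13, against 0 for all genes, with 9 positive values and 1 negative. Standard errors of the 8 tested genes ran from 0.088 to 0.25 in this comparison.

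**Figure D3:**
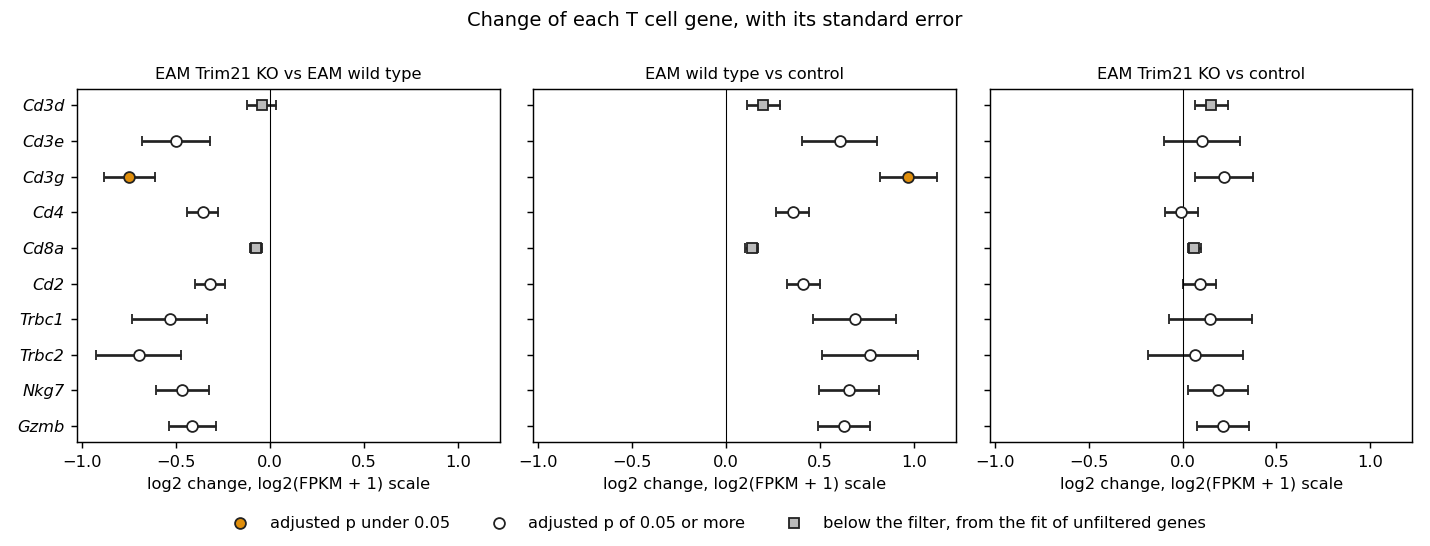
Change of each T cell gene on the log2(FPKM + 1) scale (points) with its standard error (bars) in EAM Trim21 KO against EAM wild type, EAM wild type against control, and EAM Trim21 KO against control; filled circles passed the limma threshold, open circles did not, and squares are genes under the filter, from the fit of unfiltered genes. Cd3g is the filled circle in the left and middle panels, and no gene is filled in the right panel.

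The 10 genes summed to 3.02, 2.80 and 1.45 FPKM in EAM Trim21 KO, against 6.18, 7.34 and 7.57 FPKM in EAM wild type and 0.905 and 1.85 FPKM in control. General leukocyte transcripts moved with it: the sum of Ptprc, Coro1a, Laptm5, Cd52, Cd53 and Lcp1 was 13.3, 13.4 and 11.2 FPKM in EAM Trim21 KO, against 28.6, 25.8 and 26.9 FPKM in EAM wild type and 10.4 and 13.2 FPKM in control. The ratio of the 2 sums was 0.226, 0.208 and 0.130 in EAM Trim21 KO, against 0.216, 0.285 and 0.282 in EAM wild type, with 0.0867 and 0.139 in control. The ratio of EAM Trim21 KO 1 was above that of EAM wild type 1, so this ratio overlapped between genotypes where each sum did not. It was higher in every EAM wild-type library than in both controls.

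Ratios between genes within a library depend on its scaling only through the constant added to each term. A total of 5 ratios were compared on the log2 scale with 0.1 FPKM added to each term: Cd8a over Cd4, Gzmb, Nkg7 and Cd2 over the mean of the 3 CD3 genes, and Trbc2 over Trbc1. None differed in EAM Trim21 KO against EAM wild type in a 2-sided exact permutation test (adjusted p = 1 for each of 5), nor in EAM wild type against control (exact permutation, adjusted p of 0.875 to 1). The smallest p that either design allows is 0.1, so neither could pass the threshold. The farthest apart between genotypes was Cd8a over Cd4, with log2 values of 0.35, -1.26 and -1.17 in EAM Trim21 KO against -1.26, -1.88 and -1.28 in EAM wild type, where EAM Trim21 KO 1 stood alone (exact permutation p = 0.2). Cd2 over CD3 was -0.12, 0.08 and 0.04 in EAM Trim21 KO against -0.59, -0.63 and 0.24 in EAM wild type (exact permutation p = 0.4).

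**Figure D4:**
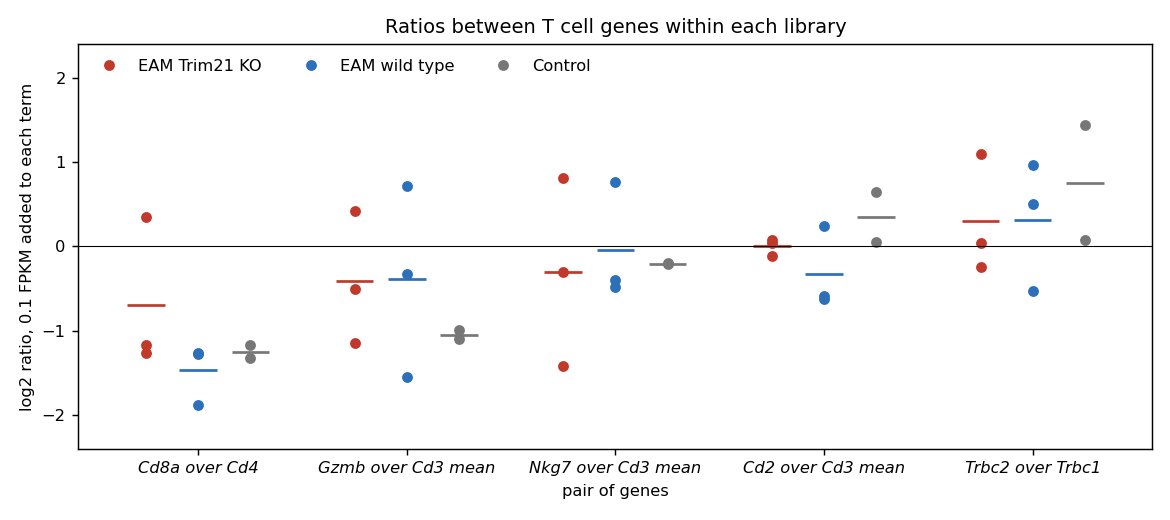
Log2 ratio between T cell genes within each library (points, 0.1 FPKM added to each term) and group mean (bars) for EAM Trim21 KO, EAM wild type and control. The groups overlap in most pairs, and EAM Trim21 KO 1 stands apart from the other knockout libraries in Cd8a over Cd4, at 0.35.

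The 10 genes did not follow each other equally across the 8 libraries. The Pearson r of a gene's log2(FPKM + 1) with the mean of the other 9 was highest for Cd2 (0.931) and Nkg7 (0.916) and lowest for Gzmb (0.748) and Cd3d (0.466). These points share libraries and group differences, so r is a description only. Among 10886 other genes with a mean of at least 0.5 FPKM, those most like the mean of the 10 included Glipr1 (r = 0.992), Tbc1d14, Pgrmc1, Spns2, Cd48, Cotl1, Tapbp, Kdelr3 and Cd52 (r = 0.978), over 8 libraries. Cd48, the ligand of CD2 in mice, stood at 1.04, 1.20 and 0.778 FPKM in EAM Trim21 KO, against 2.00, 1.92 and 2.29 FPKM in EAM wild type and 0.622 and 0.753 FPKM in control. An r of at least 0.9 was reached by 231 genes.

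Of the genes that carry the receptor signal, 9 of 16 listed passed the filter. Lck, the kinase bound to CD4 and CD8, was the 1 called in either comparison. Of all tested genes, 1.91% were called lower between genotypes and 0.876% higher in EAM wild type against control. Lck stood at 0.199, 0.272 and 0.208 FPKM in EAM Trim21 KO, against 0.843, 0.625 and 0.747 FPKM in EAM wild type and 0.0629 and 0.101 FPKM in control. The 3 groups did not overlap. Lck fell by 0.50 on the log2(FPKM + 1) scale in EAM Trim21 KO against EAM wild type (SE 0.073, limma adjusted p = 0.0181) and rose by 0.68 in EAM wild type against control (SE 0.082, limma adjusted p = 0.00987). The list had a median log2 change of -0.22 between genotypes, with 8 of 9 negative, and of 0.23 in EAM wild type against control, with 9 of 9 positive, against -0.085 and 0.069 for all tested genes. Lck lost its call between genotypes without EAM Trim21 KO 2 or EAM wild type 1 (limma adjusted p of 0.0539 to 0.0597), and its call against control without either control (0.0740 and 0.137).

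Trac, the constant region of the receptor alpha chain and the partner of Trbc1 and Trbc2 in the same receptor, was the gene of that list with a positive genotype difference; it was singled out after its values were seen. It stood at 2.69, 1.84 and 0.645 FPKM in EAM Trim21 KO, against 1.47, 1.38 and 0.924 FPKM in EAM wild type and 0 and 0.457 FPKM in control. The EAM groups overlapped, with a log2 change of 0.20 (SE 0.28, limma adjusted p = 0.743). The ratio of Trac to the sum of Trbc1 and Trbc2 was 2.10, 2.02 and 1.92 in EAM Trim21 KO, against 0.834, 0.667 and 0.271 in EAM wild type, with 0 and 0.399 in control, and no test was made of a ratio chosen in this way. Cd247, the zeta chain, stood at 0.242, 0.201 and 0.170 FPKM in EAM Trim21 KO, against 0.135, 0.339 and 0.283 FPKM in EAM wild type (log2 change -0.05, SE 0.077, limma adjusted p = 0.758), with the groups overlapping.

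Among coreceptors, costimulatory receptors and checkpoints, 10 of 16 passed the filter. All 10 had a negative log2 change between genotypes (median -0.23, against -0.085 for all tested genes). None was called by limma, with 6 of 10 at an unadjusted p under 0.05, against 18.0% of all tested genes. Over all tested genes limma called 1.91% lower between genotypes and 0.876% higher in EAM wild type against control. Cd5, a receptor that tempers receptor signalling, rose in EAM wild type against control by 0.46 (SE 0.078, limma adjusted p = 0.0386), with 0.504, 0.410 and 0.333 FPKM in EAM wild type against 0.0571 and 0 FPKM in control. Of 5 tested T cell cytokine receptors, Il2rb, the beta chain of the IL-2 and IL-15 receptors, fell in EAM Trim21 KO against EAM wild type by 0.58 (SE 0.10, limma adjusted p = 0.0306), with 0.458, 0.456 and 0.184 FPKM in EAM Trim21 KO against 0.954, 0.967 and 1.17 FPKM in EAM wild type. Il2rg, the shared gamma chain found on many leukocytes, rose in EAM wild type against control by 0.74 (SE 0.11, limma adjusted p = 0.0209). Of 11 lineage transcription factors 5 were tested, and limma called 0 in each comparison, with 3 at an unadjusted p under 0.05 between genotypes (18.0% of all tested genes), 1 in EAM wild type against control (13.3%) and 0 in EAM Trim21 KO against control (12.4%). Of 10 T cell cytokine genes none passed the filter, and Il17a, Il2, Il4, Il13, Il21 and Il22 were listed at 0 in all 8 libraries. Their summed level was at most 0.152 FPKM in EAM Trim21 KO, 0.299 FPKM in EAM wild type and 0.0457 FPKM in control.

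Chemokines that attract T cells had the highest share of calls among the pathway lists. The 6 general leukocyte genes held as many calls, 4 lower between genotypes and 3 higher in EAM wild type against control. Over all tested genes these shares were 1.91% and 0.876%. Of 6 tested chemokines, Cxcl9, Cxcl16, Ccl5 and Ccl22 fell in EAM Trim21 KO against EAM wild type. In EAM wild type against control Cxcl9, Cxcl16 and Ccl22 rose. Cxcl9, a ligand of CXCR3, stood at 0.615, 0.804 and 1.12 FPKM in EAM Trim21 KO, against 2.13, 3.54 and 2.74 FPKM in EAM wild type and 0.381 and 0.626 FPKM in control. The EAM groups did not overlap. Its log2 change was -1.04 between genotypes (SE 0.16, limma adjusted p = 0.0202) and 1.33 in EAM wild type against control (SE 0.18, limma adjusted p = 0.0153). Ccl5, a chemokine made by T cells and NK cells among others, stood at 1.45, 0.426 and 0.814 FPKM in EAM Trim21 KO, against 3.42, 2.94 and 2.41 FPKM in EAM wild type (log2 change -1.08, SE 0.22, limma adjusted p = 0.0475). Of 10 tested homing receptors, 2 were called higher in EAM wild type against control, against 0.876% of all tested genes. Cxcr3, 1 of these, rose by 0.57 (SE 0.099, limma adjusted p = 0.0420). No homing receptor was called between genotypes, with 6 of 10 at an unadjusted p under 0.05, against 18.0% of all tested genes.

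Of 7 tested cytotoxic effector genes 1 was called lower between genotypes, against 1.91% of all tested genes. Cst7, which encodes cystatin F of granules, fell in EAM Trim21 KO against EAM wild type by 0.37 (SE 0.070, limma adjusted p = 0.0354). It was listed at 0 in the 3 EAM Trim21 KO libraries and both controls, against 0.211, 0.265 and 0.419 FPKM in EAM wild type, so the fitted change depends on the pseudocount. Gzma, granzyme A, stood at 0.684, 0 and 0.626 FPKM in EAM Trim21 KO, against 2.22, 1.19 and 3.13 FPKM in EAM wild type and 0.135 and 0.542 FPKM in control (log2 change -1.14 between genotypes, SE 0.27, limma adjusted p = 0.0752). All 7 had a negative value between genotypes (median -0.37, against -0.085 for all tested genes). In EAM Trim21 KO against control limma called 0 of the 52 tested genes of these pathway lists, with 6 at an unadjusted p under 0.05, against 12.4% of all tested genes.

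Transcripts of other leukocytes moved with the T cell genes, and their part in the results was not tested. Of all tested genes, 1.91% were called lower in EAM Trim21 KO against EAM wild type. Of 8 monocyte and macrophage markers, Adgre1, Cd68, Lyz2 and C1qa fell in EAM Trim21 KO against EAM wild type, and the list summed to 173 to 227 FPKM in EAM Trim21 KO, 331 to 399 FPKM in EAM wild type and 187 to 214 FPKM in control. Of 5 tested dendritic cell markers of 8, Itgax and Cd209a fell, with sums of 2.86 to 3.09 FPKM in EAM Trim21 KO, 5.33 to 5.87 FPKM in EAM wild type and 2.34 to 2.53 FPKM in control. Of the 6 general leukocyte genes, Coro1a, Laptm5, Cd52 and Cd53 fell. Of 2 tested NK markers of 8, Ncr1 fell, at 0, 0.0402 and 0.115 FPKM in EAM Trim21 KO against 0.350, 0.533 and 0.692 FPKM in EAM wild type (log2 change -0.53, SE 0.097, limma adjusted p = 0.0332). The NK list summed to 3.35 to 3.89 FPKM in EAM Trim21 KO, 5.07 to 5.71 FPKM in EAM wild type and 2.60 to 3.97 FPKM in control, and Klra8 was listed at 0 throughout. Most of that sum was Fcgr3, a receptor also known from macrophages, at 3.75, 3.25 and 3.53 FPKM in EAM Trim21 KO, against 4.81, 4.87 and 4.11 FPKM in EAM wild type and 2.47 and 3.76 FPKM in control. Nkg7 and Gzmb are known from NK cells as well as from T cells.

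Of the 32 calls of listed genes over both comparisons, those of Laptm5 and Cd53 between genotypes were the 2 that held when each library in turn was left out. Each of the 8 libraries ended between 12 and 22 of the calls when left out, at limma adjusted p of up to 0.288, and 17 calls held with median-ratio scaling. Most calls, those of Laptm5 and Cd53 among them, did not hold without EAM Trim21 KO 1 and 2 and EAM wild type 2 together. These libraries are high in atrial muscle transcripts, and without them EAM Trim21 KO 3 is the only knockout library.

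Markers of gamma delta T cells, B cells and plasma cells, mast cells and cardiomyocytes held no limma call in any comparison. Of their 22 tested genes, 3 had an unadjusted p under 0.05 between genotypes, 4 in EAM wild type against control and 4 in EAM Trim21 KO against control, against 18.0%, 13.3% and 12.4% of all tested genes in the same order. The gamma delta list summed to 5.72 to 6.42 FPKM in EAM Trim21 KO, 7.59 to 9.39 FPKM in EAM wild type and 5.36 to 6.36 FPKM in control. Most of that sum was the transcription factor gene Sox13, at 5.99, 5.32 and 6.06 FPKM in EAM Trim21 KO, against 7.75, 6.17 and 7.21 FPKM in EAM wild type and 5.12 and 5.81 FPKM in control. In 3 of the 6 listed genes every knockout value was below every EAM wild-type value, against 15.6% of genes above 0. Trdc, a receptor constant region among them, stood at 0.104, 0.0496 and 0.0632 FPKM in EAM Trim21 KO, against 0.342, 0.338 and 0.160 FPKM in EAM wild type and 0.122 and 0.193 FPKM in control (limma adjusted p = 0.132 between genotypes). The constant region Tcrg-C1 overlapped between genotypes and reached at most 0.978 FPKM, in EAM wild type 1. The B and plasma cell list did not share the genotype order of the T cell genes, with sums of 10.4 to 33.8 FPKM in EAM Trim21 KO, 12.3 to 28.6 FPKM in EAM wild type and 5.09 to 7.13 FPKM in control. Mast cell markers summed to 4.59 to 6.33 FPKM in EAM Trim21 KO, 3.72 to 4.66 FPKM in EAM wild type and 3.01 to 4.34 FPKM in control. Of the thymocyte markers Rag1 and Rag2 were listed at 0 in all 8 libraries, while Dntt stood at 0.0326 and 0.0307 FPKM in EAM wild type 1 and 2, and Ptcra at 0.0542 FPKM in EAM wild type 1 and 0.0530 FPKM in control 2. Of the lymph node markers Ccl19 and Ccl21a were listed at 0 in all 8 libraries, while Madcam1 stood at 0.0489 and 0.0459 FPKM in EAM wild type 1 and 2. Cxcl13, a chemokine for B cells on the same list, stood at 2.21, 0.945 and 0.106 FPKM in EAM Trim21 KO, against 0.242, 4.71 and 0.598 FPKM in EAM wild type and 0.103 and 0 FPKM in control. The cardiomyocyte list summed to 9900 to 11517 FPKM in EAM Trim21 KO, 9435 to 10704 FPKM in EAM wild type and 11704 to 12456 FPKM in control.

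Atrial muscle transcripts split the libraries in another way. The list summed to 4978, 4005 and 306 FPKM in EAM Trim21 KO, against 399, 5412 and 781 FPKM in EAM wild type and 172 and 215 FPKM in control. The 3 high libraries were thus EAM Trim21 KO 1 and 2 and EAM wild type 2. Sln, an atrial regulator of the calcium pump, stood at 531, 421 and 0.119 FPKM in EAM Trim21 KO, against 15.5, 395 and 58.9 FPKM in EAM wild type and 0.459 and 0.132 FPKM in control. In the 3 EAM libraries low in these transcripts, Cd3g was 0.412 FPKM in EAM Trim21 KO 3, against 1.51 and 0.773 FPKM in EAM wild type 1 and 3, and without the 3 high libraries the log2 change was -0.58 (limma adjusted p = 0.427, with EAM Trim21 KO 3 assumed to vary like the other groups).

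**Figure D5:**
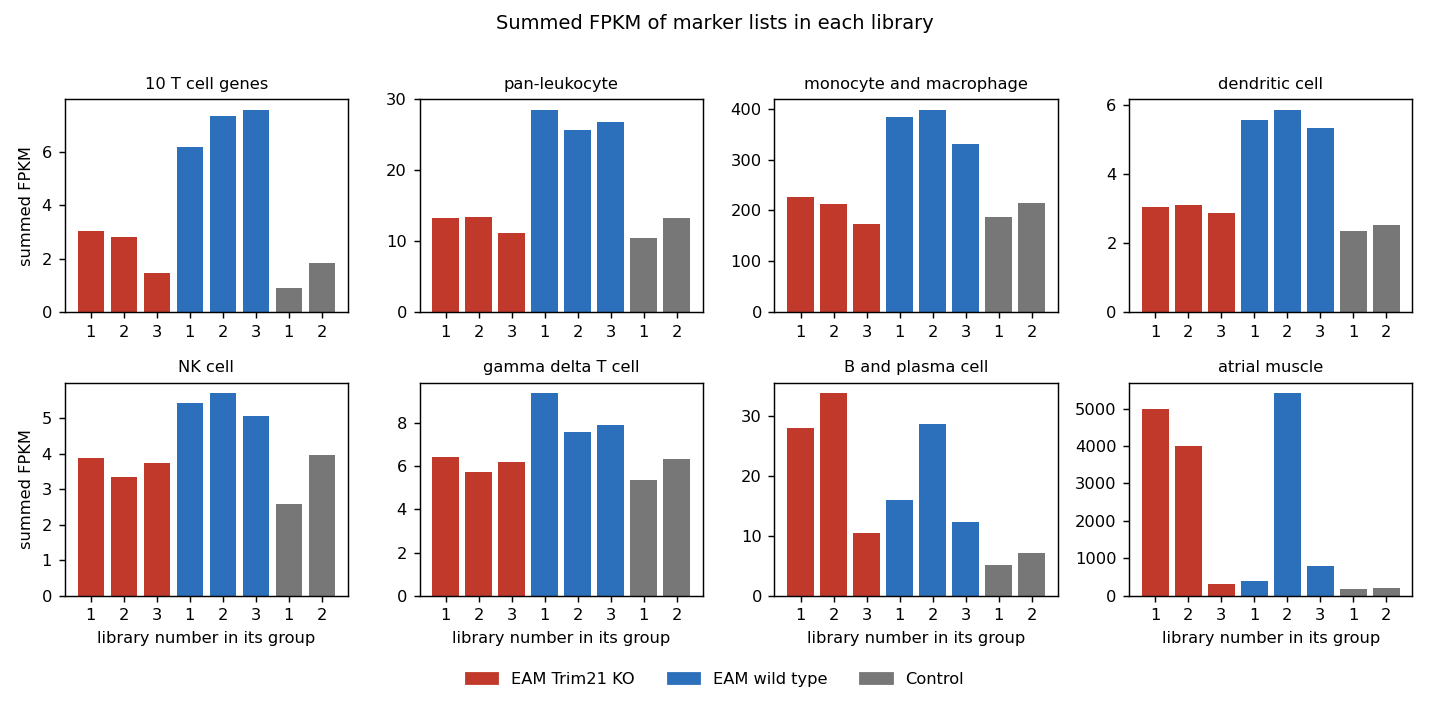
Summed FPKM of the 10 T cell genes and of 7 marker lists in each library (bars), with EAM Trim21 KO left of EAM wild type and control in each panel and a scale of its own per panel. EAM wild type is highest for T cell, general leukocyte, macrophage, dendritic cell, NK cell and gamma delta T cell lists. The B and plasma cell list (10.4 to 33.8 in EAM Trim21 KO, 12.3 to 28.6 in EAM wild type) and the atrial list split the libraries in other ways.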

How the data were processed

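Messenger RNA was isolated from total RNA of mouse hearts and made into sequencing libraries, per the labels' protocols. The authors deposited FPKM values for 34745 genes in 8 libraries, and build mm10, edgeR, StringTie 1.3.3b and HISAT2 2.0.4 are named, per the submitters' processing notes, without their roles. Strand use, the annotation release and the heart parts taken, all not given in the sources used here, are unknown. Coordinates are those of the deposited table. The second deposited sheet holds former library names, text other than a measurement, which number the hearts 2, 5 and 6 (EAM Trim21 KO), 1, 3 and 4 (EAM wild type) and 1 and 2 (control), so equal replicate numbers do not mark 1 animal. Whether each library is a separate animal is not stated in the labels, so p-values reflect the spread between these libraries alone.

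Groups were taken from the labels. Genes with a mean of at least 0.1 FPKM over the 8 libraries were tested on log2(FPKM + 1) with limma 3.58.1 (R 4.3.3), all 8 libraries and 3 groups in 1 fit with a mean-variance trend and 5 residual degrees of freedom. This left 14961 genes and removed 19784. The Benjamini-Hochberg adjustment ran over all tested genes, with a threshold of 0.05. The low filter was chosen because most of the 10 genes lie below 1 FPKM. Ratios were compared with a 2-sided exact permutation test. The fit was tested on simulated data. Where a symbol occurs in more than 1 row (59 symbols), lists took the row of highest mean.

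Depth was inferred from FPKM values on the 1-fragment step, which 451 to 593 genes per library met within a relative tolerance of 0.0001 at GENCODE M21 exon lengths. A value counted as a whole number of steps within 0.02 up to 10 steps and within 0.2% above. The limit for a value of 0 is 3 fragments, with a step taken as 1 fragment. Fragments are not independent molecules, so such limits cover counting error only. Start regions came from RefSeq (GRCm38.p6) and transcripts from GENCODE M21. The 10 genes, the lists and the alternatives were chosen with earlier results of these data known. Named genes are the 10, the called genes of the lists (up to 4 per list), the 10 genes most like the mean of the 10, Trim21, and markers of other cell types, less a few genes that are not reported here; other list genes were named after their values were seen. Alternatives covered the pseudocount, the filter, the scaling, the variance trend, the groups in the fit, a replicate block and libraries left out.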

Additional observations from a re-analysis of the deposited data

How the results depend on the processing

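Every tested gene of the 10 kept its sign in EAM Trim21 KO against EAM wild type and in EAM wild type against control under each alternative run. The 1 call between genotypes became 0 with no filter, median-ratio scaling, quantile normalization, a replicate block, only the 2 groups compared, and without the 3 libraries high in atrial transcripts, and 0 to 1 with 1 library left out. The 1 call in EAM wild type against control became 0 under the same settings except the block, 2 with a pseudocount of 0.1 (Gzmb joins Cd3g), and 0 to 1 with 1 library left out; Gzmb was called there without EAM wild type 2 as well. Deviations of same-numbered EAM libraries correlated at -0.084, 0.307 and 0.274, and those of differently numbered libraries at -0.451 to 0.230. These values cannot show whether the replicate numbers pair the hearts. Genes called between genotypes numbered 334, and 180 with no filter, 158 with median-ratio scaling, 145 with quantile normalization, 188 with the block, 172 with only 2 groups, 39 without the atrial-high libraries and 79 to 192 with 1 library left out. In EAM wild type against control they numbered 145, and 91, 78, 63, 30 (2 groups), 19 (atrial) and 14 to 126 in the same order without the block. In EAM Trim21 KO against control they numbered 121, and 73 with no filter, 75 with 2 groups, 26 without the atrial-high libraries and 26 to 168 with 1 library left out. Signs in EAM Trim21 KO against control, where no gene was called, were not stable. Without the atrial-high libraries Cd3e gave -0.24, Cd4 0.0166, Trbc1 -0.22, Trbc2 -0.11 and Nkg7 -0.11. With the block Cd4 gave 0.0044 and Trbc2 -0.015. With 1 library left out Cd3e gave -0.058 to 0.27, Cd4 -0.053 to 0.052, Trbc1 -0.17 to 0.47 and Trbc2 -0.15 to 0.29. Ratio differences that changed sign were, between genotypes, Gzmb over CD3 (0.068 at a pseudocount of 0.5, -0.60 to 0.53 with 1 library left out), Nkg7 over CD3 (-0.83 to 0.29) and Trbc2 over Trbc1 (0.15 at 0.02, -0.43 to 0.31). In EAM wild type against control they were Cd8a over Cd4 (0.85 at 0.02), Nkg7 over CD3 (-0.23 to 0.39) and Trbc2 over Trbc1 (0.023 at 0.5, -1.13 to 0.24). The cause was not tested.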
